A study of Rattus norvegicus with 9 samples.

Results

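Gtpbp4 encodes a nucleolar GTPase, called Nog1 in yeast and also Crfg in the gene table, and was read by 2 probe sets among the 31099 of the array, as 1 gene among 10337 that passed an intensity minimum. The members were all probe sets named to Gtpbp4 alone, 1372869_at and 1370144_at. The gene was chosen by its measured level, which an earlier look at these arrays found far lower at the high dose than in the other groups, so its levels by dose are given as a description with no test. Kidney RNA came from 9 Sprague-Dawley rats, bought at 8 weeks of age and kept for 1 week before the study. Saline vehicle (0 mg/kg, called vehicle here) or colistin methanesulfonate sodium at 25 mg/kg (CMS25) or 50 mg/kg (CMS50) was injected into the peritoneum daily over 7 days, and each dose was given to 3 rats, each with an array of its own. Colistin methanesulfonate is the prodrug of the polymyxin antibiotic colistin, whose use is limited by kidney damage. The labels give no lesion for vehicle, basophilic and dilated tubules for CMS25, and casts, necrosis and degenerating tubules for CMS50. All values are log2 intensities from the authors' RMA processing, and their precision is limited by the 3 rats per dose.

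Ribosomes are built in the nucleolus, where ribosomal RNA is transcribed by RNA polymerase I, modified by small nucleolar ribonucleoproteins (snoRNPs) and folded onto ribosomal proteins with the help of many assembly factors. In yeast, Nog1 joins the precursor of the large ribosomal subunit in the nucleolus, sits across the particle while its catalytic centre is being formed, and leaves in the cytoplasm together with the placeholder protein Rlp24. Rat Gtpbp4 also has 3 annotated pseudogenes, none of which had a probe set named to it, and whether the probes also read them was not tested.

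The 250 bases before the annotated start of Gtpbp4 are shown because they hold 3 copies of CGGAAGT, the core sequence recognised by ETS transcription factors, and so let the gene be set beside its assembly partners at the level of sequence. The sequence is RefSeq's for the build GRCr8, chr17:65999133-65999382, + strand, written 5′ to 3′ with the motif in capitals.

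Gtpbp4 promoter: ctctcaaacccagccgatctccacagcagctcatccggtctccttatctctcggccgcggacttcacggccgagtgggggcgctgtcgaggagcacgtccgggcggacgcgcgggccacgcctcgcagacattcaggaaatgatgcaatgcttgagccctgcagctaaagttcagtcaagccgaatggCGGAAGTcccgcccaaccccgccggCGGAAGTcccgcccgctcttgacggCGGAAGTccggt

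All 3 copies read in the direction of the gene, with first bases at -62, -37 and -12 from the start, and the reverse complement ACTTCCG did not occur. Both strands were searched, a copy of this motif cannot overlap another on the same strand, and the motif was picked after the sequence had been seen. Of 27457 promoter stretches of the same length, 5.58% held at least 1 copy and 0.0874% held 3 or more. Among the 8673 genes tested that had a promoter in the table, 12.0% held it and 22 genes (0.254%) had 3 or more copies. Among 131 other ribosome assembly genes, 35.9% held at least 1 copy, and 3 of them, the helicase Ddx27, the processome protein Utp3 and the pseudouridine synthase Dkc1, had 3 copies. A match says only that these letters are present.

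Gtpbp4 RNA was high in every vehicle and CMS25 kidney and low in every CMS50 kidney. Probe set 1372869_at read 11.42, 11.59 and 11.60 in vehicle replicates 1, 2 and 3. In CMS25 it read 11.60, 10.88 and 12.03. In CMS50 it read 7.13, 7.03 and 7.61. The 3 CMS25 values lay on both sides of the vehicle values, whereas the highest CMS50 value was 3.26 below the lowest value of the other 6 arrays, a 9.60-fold gap. As shares of the vehicle mean, the CMS50 kidneys held 4.73%, 4.41% and 6.60% of the signal.

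**Figure D1:**
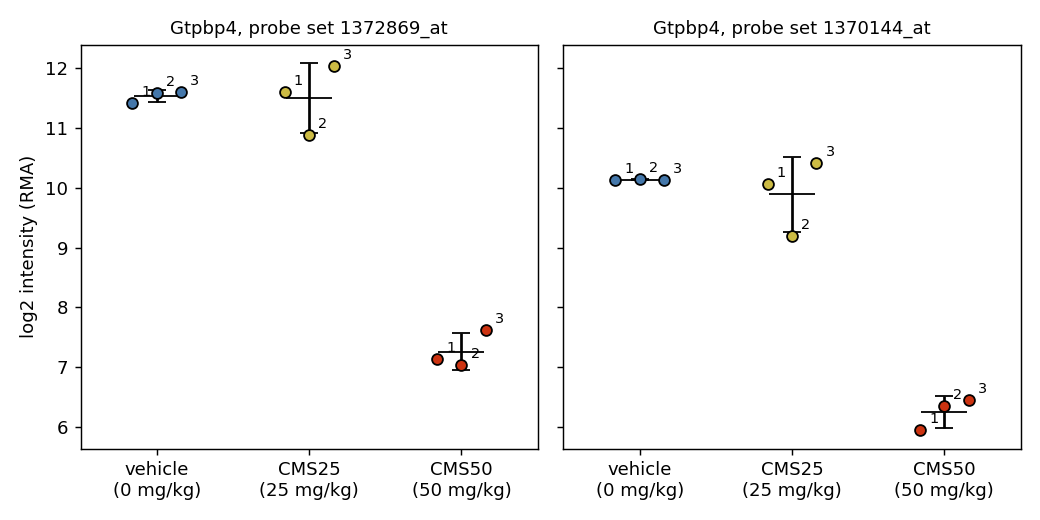
The log2 intensity of Gtpbp4 on each array is plotted for both probe sets by dose group, with replicate numbers beside the points and the group mean ± SD (n = 3) as a black bar. The CMS50 arrays lie between 7.03 and 7.61 for 1372869_at and between 5.94 and 6.45 for 1370144_at, far below all other arrays.

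The second probe set, 1370144_at, gave the same order of groups from other probes. It read 10.13, 10.15 and 10.12 in vehicle, 10.06, 9.19 and 10.41 in CMS25 and 5.94, 6.34 and 6.45 in CMS50. Here CMS50 and the other arrays were separated by 2.74, a 6.68-fold gap. Levels of different probe sets are not comparable, but their difference on each array should stay constant if they read the same RNA in the same way. That difference was 1.40 ± 0.103 in vehicle, 1.61 ± 0.0750 in CMS25 and 1.01 ± 0.282 in CMS50 (SD, n = 3). The difference between CMS50 and the other groups was thus smaller by 1370144_at than by 1372869_at.

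In group means, 1372869_at stood at 11.54 ± 0.102 in vehicle, 11.50 ± 0.584 in CMS25 and 7.26 ± 0.310 in CMS50 (SD, n = 3). The CMS50 mean was 18.9-fold below that of CMS25 (log2 difference -4.24, SE 0.26) by this probe set and 12.5-fold below it (-3.64, SE 0.26) by 1370144_at. Against vehicle the differences were -4.28 (SE 0.26), or 19.4-fold, and -3.89 (SE 0.26), or 14.8-fold. CMS25 and vehicle were neighbours in this order, and their difference of -0.03 by 1372869_at and -0.25 by 1370144_at was smaller than the SD within CMS25. In whole-kidney RNA, fewer cells holding a transcript and less of it per cell cannot be told apart.

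The size of the separation was rare on these arrays. Among the 10337 genes, 1159 had all CMS50 arrays below all other arrays, of which 21 were separated by at least 1 on the log2 scale and 2 by at least 2. These 2 were Klk1c4, a tissue kallikrein, with a gap of 4.60, and Gtpbp4. The next genes were the kallikrein Klk1 (1.74), the globin gene Hbb (1.65) and the kallikrein Klk1b3 (1.59), and Gtpbp4 ranked 2 among the falls against both vehicle and CMS25. These counts use the contrasts by which Gtpbp4 was chosen.

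The replicates of a dose differed in ways that bear on these values. CMS50 replicate 3 stood nearer to vehicle than the other CMS50 arrays over much of the table. Among 365 genes that were at least 1 lower in CMS50 replicates 1 and 2 than in vehicle, replicate 3 showed a median share of 0.477 of their fall (interquartile range 0.343 to 0.650), and among 491 genes at least 1 higher it showed 0.613 of the rise. For Gtpbp4 this share was 0.881 by 1372869_at and 0.923 by 1370144_at, and 28 of the 365 genes reached or passed 0.881. Choosing genes on replicates 1 and 2 lowers the share in replicate 3, and this measure was added after the data were seen. A given distance between replicates is also a smaller share of a larger difference, and that of Gtpbp4 was among the largest.

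Within CMS25, by contrast, Gtpbp4 was more variable than most genes. Its SD of 0.584 there was larger than that of 97.5% of genes, whose median SD was 0.143, while its vehicle SD of 0.102 was larger than that of 44.8%. Replicate 3 read 2.23-fold above replicate 2 by 1372869_at and 2.33-fold above it by 1370144_at. On the same pair of arrays, 73 genes were at least 1 higher in replicate 3 and 114 at least 1 lower. Single tubular injury markers, picked here after their values were seen, differed between these arrays as well. Clu read 9.48 in replicate 2 and 8.51 in replicate 3, Krt18 read 8.03 and 7.13, and Spp1 read 9.25 and 10.06. Over all 9 measured injury markers, the median difference from the vehicle mean was 0.10 in replicate 2 and -0.39 in replicate 3. Among kidney markers, Slc12a3 read 10.34 and 8.83 and Aqp2 read 11.73 and 10.86 in these replicates. The median difference of the 8 measured kidney markers was -0.08 in both. The part of these markers in the Gtpbp4 values was not tested. CMS25 replicate 1 carried more fat transcripts, with the perilipin gene Plin1 at 6.52 against 3.43 to 3.56 on the other vehicle and CMS25 arrays, and its Gtpbp4 signal was within 0.10 of the vehicle mean by both probe sets.

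Kidney genes were high on these arrays, and some markers of other tissues were detected too. All 8 annotated kidney markers of 9 listed passed the minimum, with the loop of Henle protein Umod at 13.59 to 13.82 and the proximal tubule receptor Lrp2 at 13.27 to 13.35 in vehicle. Among markers of other tissues, 4 of 11 passed, and the adrenal genes Cyp11b1 and Cyp17a1 read at most 3.13 and 3.82 on any array. The muscle myosin gene Myh1 read 11.33 to 12.31 over the 9 arrays, whereas Ckm, the other muscle gene listed, read 3.19 to 3.49. The liver genes Alb and Apoa1 read 10.48 and 5.29 in vehicle replicate 1, against at most 5.29 and 3.72 on the other arrays. That array had the lowest vehicle value of Gtpbp4 by 1372869_at (11.42) but not by 1370144_at (10.13, with 10.12 in vehicle replicate 3). The part of these transcripts of other tissues in the results was not tested. The difference between the 3′ and 5′ control probe sets of beta-actin, a reading of RNA quality, was 2.98 ± 0.155 in vehicle, 3.17 ± 0.120 in CMS25 and 3.58 ± 0.0854 in CMS50 (SD, n = 3), so it moved with the CMS50 changes described here, and its part in them was not tested.

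Whether the rest of the ribosome assembly machinery moved with Gtpbp4 was asked with 157 other genes in 4 lists, of which 151 had a named probe set and 147 passed the minimum. By limma with adjustment over all 10337 genes, 38 of the 147 rose in CMS50 against vehicle (25.9%, with 19.6% of all genes called higher) and 2 fell (1.36%, with 11.4% of all genes called lower). The median difference was 0.20, against 0.05 over all genes, and 119 of the 147 differences were positive. Polr1g and Baz2a are among the 38 and passed the minimum only through CMS50, where they were high. Calls in either direction were made for 31.1% of all genes in this comparison. Leaving out single arrays moved the 38 rises to 19, 17 and 24 without vehicle replicates 1, 2 and 3 and to 16 and 13 without CMS50 replicates 1 and 2, and the 2 falls to 1, 1, 0, 0 and 0 in the same order. Against CMS25, 45 of 147 were higher in CMS50 (30.6%, with 20.8% of all genes) and 1 was lower (0.680%, with 9.43% of all genes), where 30.3% of all genes were called in either direction. The lower count was 2 with CMS50 replicate 3 left out. The 45 became 23 when CMS25 replicate 3 was left out, and 22 or 20 when CMS50 replicate 1 or 2 was. The comparisons share the CMS50 arrays. In CMS25 against vehicle, limma called 0 of 10337 genes (0%) and hence 0 of 147, with 604 of all genes at an unadjusted p under 0.05, and it called 0 genes under each of the 18 alternatives.

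**Figure D2:**
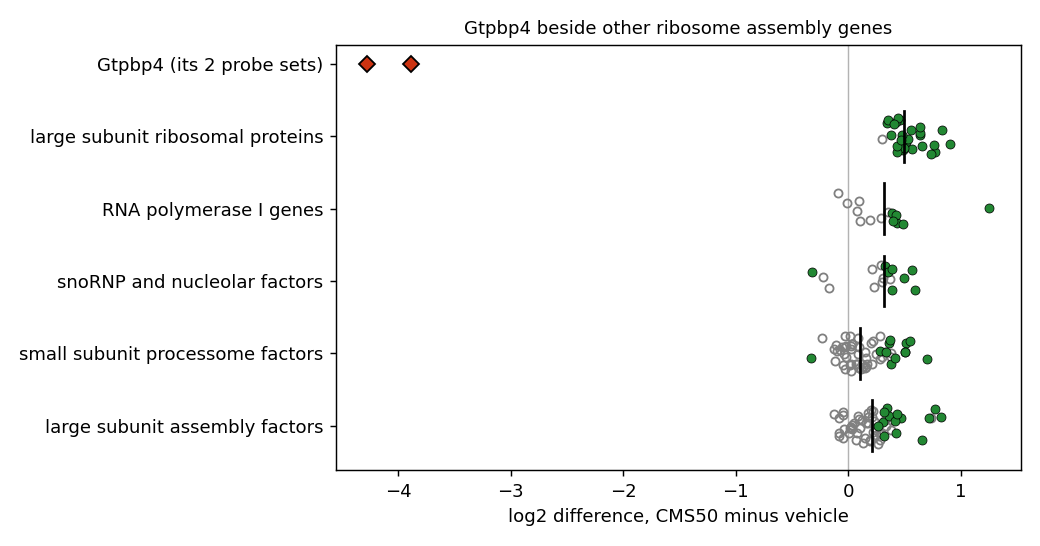
The log2 difference between CMS50 and vehicle is plotted for each measured gene of the 4 ribosome assembly lists and of the large subunit ribosomal proteins, with filled points for genes that passed the test, open points for the others and a vertical line at each list's median; vertical scatter within a row has no meaning. Both Gtpbp4 probe sets (-4.28 and -3.89) lie far to the left of every other point, the lowest of which is -0.33.

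Large subunit assembly factors are the direct company of Gtpbp4. Of 59 measured, 14 rose (23.7%, near the 19.6% of all genes called higher), 0 fell (11.4% of all genes called lower) and 45 did not pass, with a median of 0.21. The 14 rises became 6 without vehicle replicate 1, 6 without vehicle replicate 2, and 6 and 4 without CMS50 replicates 1 and 2. Rrp15, a factor of early large subunit processing, read 6.27, 6.18 and 6.32 in vehicle, 6.39, 6.47 and 6.36 in CMS25 and 6.95, 7.36 and 6.93 in CMS50, a rise of 0.82 (SE 0.12, adjusted p = 0.00294). Its CMS50 values lay above all other arrays, as did those of 2470 of the 10337 genes. Pes1, which with Bop1 and Wdr12 forms a complex needed for large subunit maturation, rose by 0.77 (SE 0.17, adjusted p = 0.0100), whereas Bop1 at 0.21 (adjusted p = 0.0888) and Wdr12 at -0.09 (adjusted p = 0.558) did not pass. Rrp1b, a nucleolar protein of the same branch, rose by 0.72 (SE 0.16, adjusted p = 0.0103), and by 0.31 with its probe sets averaged (adjusted p = 0.111). Nop53, which brings the RNA exosome to the particle in yeast, rose by 0.66 (SE 0.10). These differences are from vehicle. Against CMS25, 19 of the 59 were higher in CMS50 (32.2%, with 20.8% of all genes called higher). In that comparison 0 were lower, with 9.43% of all genes called lower.

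Proteins that meet Nog1 on the yeast particle showed small differences between CMS50 and vehicle. Rsl24d1, the counterpart of Rlp24, read 5.87, 5.91 and 6.02 in vehicle, 5.45, 5.76 and 5.95 in CMS25 and 5.98, 5.84 and 6.19 in CMS50, a difference of 0.06 (95% interval -0.25 to 0.38, adjusted p = 0.757). Nsa2 differed by 0.17 (-0.09 to 0.44), the GTPase Gnl2 (Nog2 in yeast) by 0.19 (-0.04 to 0.42), Mrto4, which holds the place of a stalk protein, by 0.13 (-0.08 to 0.34) and the export adaptor Nmd3 by 0.09 (-0.10 to 0.29), and none passed the test. Eif6, which keeps the subunits apart until the large one is finished, read 10.02, 10.19 and 10.18 in vehicle and 10.57, 10.66 and 10.45 in CMS50, a rise of 0.43 (SE 0.10, adjusted p = 0.0144). That call needed both vehicle replicate 1 and CMS50 replicate 2. The lowest of these interval bounds was -0.25, while Gtpbp4 differed by -4.28 in the same comparison. Against CMS25, Gnl2 (0.32, adjusted p = 0.0436) and Eif6 (0.35, adjusted p = 0.0318) were higher in CMS50. Rsl24d1, Nsa2, Mrto4 and Nmd3 did not pass there either.

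The small subunit processome, which builds the other subunit, had 11 rises (19.0%) and 1 fall among 58 measured genes, with a median of 0.11. Its share of rises was no higher than the 19.6% of all genes, and 11.4% of all genes were called lower. The rises numbered 7, 6 and 7 with vehicle replicate 1, 2 or 3 left out, and 5 and 6 with CMS50 replicate 1 or 2 left out. Pdcd11, a large scaffold protein of ribosomal RNA processing, rose by 0.70 (SE 0.11, adjusted p = 0.00308, and 0.44 with its probe sets averaged), the assembly factor Tsr1 by 0.55, the WD repeat protein Wdr46 by 0.51 and the helicase Ddx47 by 0.50. The fall was Imp3, a component of the U3 snoRNP, which read 8.45, 8.42 and 8.58 in vehicle, 8.42, 8.51 and 8.57 in CMS25 and 8.14, 8.16 and 8.16 in CMS50. Its difference was -0.33 (SE 0.08, adjusted p = 0.0169), a call that did not hold when vehicle replicate 3, CMS50 replicate 1 or CMS50 replicate 2 was left out. Against CMS25, 14 of the 58 were higher in CMS50 (24.1%, with 20.8% of all genes called higher). Imp3 was the 1 lower gene there, with 9.43% of all genes called lower.

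Among 16 snoRNP and nucleolar genes, 7 rose (43.8%, with 19.6% of all genes called higher) and 1 fell (11.4% of all genes called lower), with a median of 0.32. Leaving out vehicle replicates 1, 2 and 3 in turn gave 3, 3 and 4 rises, and leaving out CMS50 replicates 1 and 2 gave 3 and 2. Ncl (nucleolin), the abundant RNA-binding protein of the nucleolus, rose by 0.59 (SE 0.10, adjusted p = 0.00390), Gar1, of the snoRNPs that make pseudouridine, by 0.56, Znhit6, a snoRNP assembly factor, by 0.50 and the ATPase Ruvbl2 by 0.39. The Znhit6 call needed both CMS50 replicates 1 and 2, and the Ruvbl2 call, with an adjusted p of up to 0.141 over the alternatives, needed these and every vehicle array. Nop10, a partner of Gar1 in the same particle, fell by 0.33 (SE 0.10, adjusted p = 0.0306), a call that did not hold when any vehicle array, CMS50 replicate 1 or CMS50 replicate 2 was left out. Of 14 RNA polymerase I genes, 6 rose (42.9%, again with 19.6% of all genes higher and 11.4% lower) and 0 fell, with a median of 0.32. The same leave-outs gave 3, 2 and 3 rises for vehicle and 2 and 1 for CMS50 replicates 1 and 2, and 4 without CMS50 replicate 3. Polr1g, a polymerase I subunit, rose most, from 4.64 ± 0.116 in vehicle to 5.89 ± 0.385 in CMS50 (SD, n = 3, difference 1.25, SE 0.17, adjusted p = 0.00251). Its vehicle level lay below the minimum of 5, which it passed through its CMS50 values. The same holds for Baz2a, a silencer of ribosomal RNA genes (4.83, 4.95 and 5.22 in mean, adjusted p = 0.0498), so for these genes the minimum favoured a rise and the count of 6 is no support. The subunits Polr1e and Polr1a rose by 0.49 and 0.43 and the activator Ubtf by 0.42. The Polr1e call was lost when vehicle replicate 1 or 2 or CMS50 replicate 2 or 3 was left out, and the Polr1a call with any array of these groups other than vehicle replicate 2 left out. The Ubtf call was lost without vehicle replicate 2, without CMS50 replicate 1, and with its probe sets averaged (0.19). Against CMS25, 3 of the 14 RNA polymerase I genes were higher in CMS50 (21.4%, near the 20.8% of all genes called higher). The 3 included Polr1g, while Polr1a (adjusted p = 0.114) and Polr1e (adjusted p = 0.243) did not pass. Of the 16 snoRNP and nucleolar genes, 9 were higher there (56.25%). In both lists 0 were lower, with 9.43% of all genes called lower.

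Large subunit ribosomal proteins, the building blocks onto which the particle of Gtpbp4 assembles, rose almost throughout. Of 46 listed genes, 29 had a named probe set, 27 passed the minimum, and 26 rose (96.3%, with 19.6% of all genes called higher), between 0.35 for Rpl21 and 0.90 for Rpl3, with 17 rises without CMS50 replicate 2. Rpl24, which replaces Rsl24d1 in the mature subunit, rose by 0.64 (SE 0.11, adjusted p = 0.00417). Rpl5 and Rpl11, which can bind the p53 inhibitor Mdm2 when ribosome assembly is disturbed, rose by 0.65 and 0.53. Many ribosomal protein genes have near-identical pseudogenes, so which copy a probe set reads is uncertain.

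Genes tied to nucleolar stress or to Gtpbp4 itself moved unevenly. Of 12 measured genes on this list of 13, 7 rose (58.3%, with 19.6% of all genes called higher) and 0 fell (11.4% of all genes called lower), and 4 of the 7 were the ribosomal proteins Rpl5, Rpl11, Rpl23 and Rpl24. Myc, a transcription factor that drives ribosome production, read 5.65, 6.03 and 6.05 in vehicle, 6.16, 5.39 and 5.68 in CMS25 and 8.37, 8.84 and 7.35 in CMS50, a rise of 2.28 (SE 0.34, adjusted p = 0.00303). The p53 target Cdkn1a rose by 0.99 (SE 0.13) and the cell cycle brake Rb1 by 0.31. Cdkn1a was 0.54 higher with its probe sets averaged, and the Rb1 call was lost when any vehicle array, CMS50 replicate 1 or CMS50 replicate 3 was left out (adjusted p up to 0.115). Mdm2 was at 0.08 (95% interval -0.19 to 0.35, adjusted p = 0.643). Nf2 (merlin), a tumour suppressor reported to bind the human GTPBP4 protein, was at -0.17 (-0.42 to 0.07, adjusted p = 0.260).

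Most other GTPases of this kind differed little between CMS50 and vehicle. Of 18 measured on a list of 20, 1 rose (5.56%, with 19.6% of all genes called higher) and 1 fell (5.56%, with 11.4% called lower), with a median of 0.09 and a range from -0.43 to 0.31. The fall was Drg1, a cytosolic translation GTPase of the Obg family to which Nog1 belongs, which read 7.37, 7.49 and 7.40 in vehicle, 7.48, 7.12 and 7.23 in CMS25 and 6.91, 7.01 and 7.06 in CMS50. Its difference was -0.43 (SE 0.11, adjusted p = 0.0159), and the call needed both vehicle replicate 2 and CMS50 replicate 1. The Obg relatives Gtpbp10, Mtg2, Drg2 and Ola1 differed by -0.11, 0.06, 0.12 and 0.09 and did not pass. The rise was Gnl1 (0.31, SE 0.10, adjusted p = 0.0351), a call that needed every vehicle array and both CMS50 replicates 1 and 2. The nucleolar GTPases Gnl3 (nucleostemin) at 0.24 and Bms1 at 0.12 and the cytoplasmic Lsg1 and Efl1 at 0.12 and 0.10 did not pass either. Against CMS25, 3 of the 18 were higher in CMS50 (16.7%, with 20.8% of all genes called higher). The 3 were Gnl3 (0.34, adjusted p = 0.0461), Gnl2 (0.32, adjusted p = 0.0436) and Ola1 (0.25, adjusted p = 0.0495). In that comparison 0 of the 18 were lower, with 9.43% of all genes called lower.

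**Figure D3:**
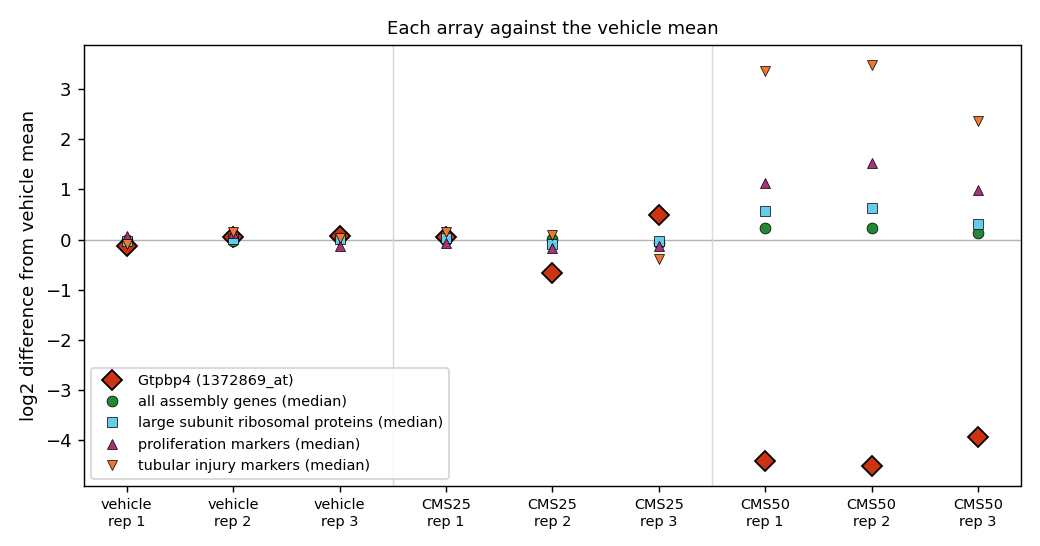
The log2 difference from the vehicle mean is plotted for each of the 9 arrays, for Gtpbp4 (1372869_at) and for the median gene of 4 lists. On the CMS50 arrays Gtpbp4 lies between -3.92 and -4.50 while the assembly gene median lies between 0.13 and 0.23 and the injury marker median between 2.37 and 3.49.

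Array by array, the lists and Gtpbp4 parted in all 3 CMS50 kidneys. The median assembly gene stood 0.23, 0.22 and 0.13 above the vehicle mean in CMS50 replicates 1, 2 and 3, and the median large subunit ribosomal protein 0.56, 0.63 and 0.32 above it. Proliferation markers, of which 10 of 12 were called higher (19.6% of all genes), stood at 1.14, 1.53 and 0.98, and the 13 macrophage markers that passed the minimum, all called higher, at 1.28, 1.71 and 0.98. Mki67, Ccnb1 and Mrc1 among them passed the minimum only through CMS50, which favours rises. The summed linear intensity of the 15 annotated macrophage markers was 1184 to 1289 in vehicle, 1034 to 1340 in CMS25 and 2288 to 4164 in CMS50. That of 14 proximal tubule markers was 92753 to 95381 in vehicle, 86809 to 99736 in CMS25 and 52084 to 83574 in CMS50, with 5 members lower and 1 higher by limma (11.4% and 19.6% of all genes). Its members went both ways, from -3.60 for the transporter Slco1a1 to 0.90 for the receptor Cubn. These marker levels moved with the dose at which Gtpbp4 differed, and their part in the results was not tested. Gtpbp4 in CMS50 was at 4.41% to 7.79% of its vehicle mean over both probe sets.

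The genes of most similar pattern were ranked by Pearson correlation with 1372869_at over the 9 arrays. Because Gtpbp4 splits the arrays into a group of 6 and a group of 3, this measure mainly finds genes that separate CMS50 from the rest, and it is given as a description. Of 10336 other genes, 86 had a correlation over 0.95 and 308 one under -0.95. The highest was that of Tfb2m, a mitochondrial transcription factor (0.987), which read 9.10, 9.18 and 9.12 in vehicle, 9.20, 9.06 and 9.13 in CMS25 and 8.34, 8.44 and 8.57 in CMS50. Then came the vesicle fusion protein Vamp4 (0.979), the motor protein Myo5a (0.979), the kallikrein Klk1c4 (0.977), Rmdn2 (0.977) and the protein modifier Ufm1 (0.976). Dapk2, a death-associated kinase, Cnbd2, Smpx, a small muscle protein, and Cd59b, an inhibitor of complement, followed with 0.972 to 0.974.

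These genes matched the shape of the Gtpbp4 pattern, not its size. Apart from Klk1c4, a member of a family of near-identical genes, their differences between CMS50 and vehicle ran from -0.33 for Dapk2 to -1.82 for Smpx, or 1.26-fold to 3.53-fold, and the Dapk2 call needed both vehicle replicate 2 and CMS50 replicate 1. With probe sets averaged, Dapk2 was at -0.12 (adjusted p = 0.277) and Cnbd2 at -0.42. With the other probe set 6 of the 10 genes were the same, and with Spearman's rank correlation 0 of 10 were. No assembly gene had a correlation over 0.95, but only 86 of the 10336 other genes did, so the absence says little about the 147. The highest assembly gene was Imp3 at 0.944 and the lowest Ddx47 at -0.957, and 85.7% of the 147 were negative, against 57.7% of all genes. A negative correlation here largely means a higher level in CMS50, so these shares mostly repeat the differences given above and are no further result.

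**Figure D4:**
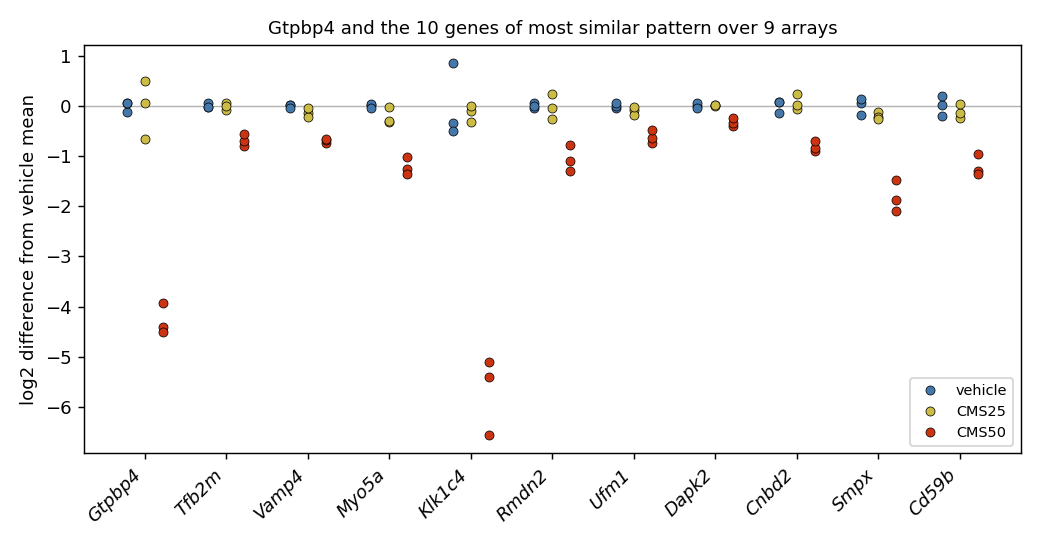
The log2 difference of each array from the vehicle mean is plotted for Gtpbp4 and the 10 genes most correlated with it, coloured by dose group. All 11 genes have their CMS50 arrays at the bottom, but only Gtpbp4 and Klk1c4 lie more than 3 below vehicle.

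The 5 genes with the most opposite pattern were Hgfac, an activator of hepatocyte growth factor (-0.995), the splicing regulator Ptbp1 (-0.993), the matrix protease Adamts1 (-0.992), Slfn9 and the RNA-binding protein Thrap3 (both -0.991). Adamts1 read 7.94, 7.85 and 7.60 in vehicle, 7.56, 8.18 and 7.35 in CMS25 and 11.73, 11.18 and 10.64 in CMS50. It was high in CMS25 replicate 2, where Gtpbp4 was low, and low in replicate 3, where Gtpbp4 was high. Once each group's mean was removed, the genes whose replicates varied most like Gtpbp4 were Rhbdd3 (0.986), Abhd17a (0.982), Abcb8, a mitochondrial transporter (0.981), Cpxm2 (0.976) and Zfp775 (0.973). All 5 were lowest in CMS25 replicate 2 and highest in replicate 3 within that group. Gtpbp4 varied most within CMS25, so choosing genes by likeness or opposition to it favours such orders, and they are no support. Of these 5 genes, limma called Cpxm2 lower in CMS50 against vehicle (-1.08, adjusted p = 0.00475), and Rhbdd3 was at 0.10 (adjusted p = 0.632). The means of Cpxm2 were 5.51 in vehicle, 5.28 in CMS25 and 4.43 in CMS50. It passed the minimum of 5 only through vehicle and CMS25, which favours a fall, so this call is no support.

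Gtpbp4 lies on chromosome 17, and the 5 measured genes on each side in the order of the GRCr8 gene table showed no difference of its size in that direction. The nearest, Larp4b, a translation regulator with 1 gene between, read 10.36, 10.43 and 10.34 in vehicle and 10.21, 10.32 and 10.36 in CMS50, a difference of -0.08 (95% interval -0.34 to 0.18, adjusted p = 0.635). On that side Zmynd11, Chrm3 and Mtr did not pass, and Heatr1, a processome protein counted above, was 0.42 higher (SE 0.11, adjusted p = 0.0197). On the other side 25 genes lie between Gtpbp4 and the nearest measured gene, Idi1, an enzyme of isoprenoid synthesis (-0.21, adjusted p = 0.524). Beyond it Wdr37 was lower by limma (-0.45, SE 0.11, adjusted p = 0.0148), Pfkp and Pitrm1 did not pass, and the transcription factor Klf6 was 2.01 higher (SE 0.26, adjusted p = 0.00215). Over these 10 genes the differences ranged from -0.45 to 2.01. The Heatr1 call needed each of vehicle replicates 1 and 3 and CMS50 replicates 1 and 2, and the Wdr37 call each of vehicle replicate 2 and CMS50 replicates 1 and 2 and the use of its brightest probe set.

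**Figure D5:**
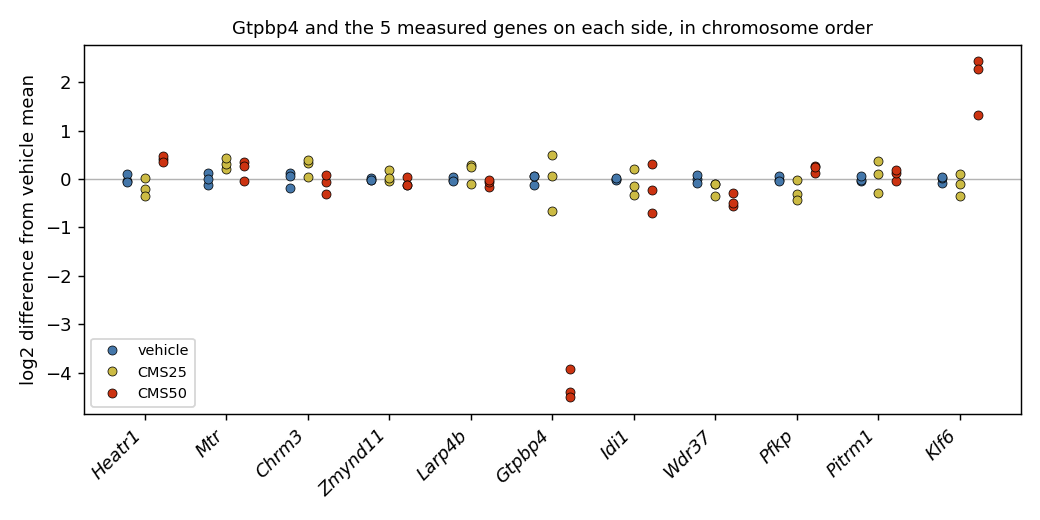
The log2 difference of each array from the vehicle mean is plotted for Gtpbp4 and the 5 measured genes on each side of it, in chromosome order and not to distance. Gtpbp4 is the only one of the 11 with CMS50 arrays below -1, and Klf6 is the only one above 1.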

How the data were processed

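Kidney RNA of 9 rats was read on Affymetrix rat expression arrays, 1 array per rat. The deposited log2 values came from the authors' RMA in Affymetrix Expression Console, per the submitters' processing notes; no version is given there. RMA equalises the arrays' distributions and compresses dim signals, so a shift of all genes cannot be seen. Values were used as deposited, and no column was left unused. Names came from the platform annotation, updated through gene identifiers of GRCr8. After control probe sets were set aside, 20826 of 31042 carried a single gene symbol. A gene with several probe sets was represented by the brightest on average, which gave 14217 genes, and 10337 of them had a mean log2 of at least 5 over the 9 arrays.

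One limma fit (version 3.58.1, R 4.3.3, lmFit and eBayes) covered all 3 groups, with Benjamini-Hochberg adjustment over all genes and calls at an adjusted p under 0.05. It was tested on simulated data. Replicates are separate rats by the labels, which give no batch or day. The named genes were the Gtpbp4 probe sets, the 10 most alike, 5 most opposite and 5 most alike within groups, up to 4 called rises and falls per assembly list, the lists of related GTPases and nucleolar stress partners, and 5 neighbours on each side. Others, and the promoter motif, the gaps, the share of CMS50 replicate 3 and the CMS25 spread, were added after values were seen. The members and lists were chosen with earlier results of these data known. Alternatives changed the scaling, intensity minimum, probe set rule, variance model, array weights, arrays used and replicate block. Plots were made in matplotlib 3.10.9 (Python 3.11.15).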

Additional observations from a re-analysis of the deposited data

How the results depend on the processing

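The lower level of Gtpbp4 in CMS50 kept its direction against vehicle and CMS25 under all 18 alternatives. The gene was chosen for this level, and every CMS50 array lay far below all others. The alternatives could thus hardly reverse the direction, which is given as a description and no support. Leaving out single arrays, the Gtpbp4 difference ran from -4.45 to -4.16 for CMS50 minus vehicle, from -4.56 to -3.98 for CMS50 minus CMS25 and from -0.30 to 0.28 for CMS25 minus vehicle. Over the same leave-outs, assembly genes called higher numbered 13 to 43 in CMS50 minus vehicle, 20 to 49 in CMS50 minus CMS25 and 0 in CMS25 minus vehicle, and those called lower 0 to 3, 1 to 2 and 0. Among other settings, cyclic loess scaling gave 1 lower call in CMS50 minus vehicle and testing each probe set gave 4. In CMS50 minus CMS25, the lower calls were 2 with each probe set tested and 2 with array weights, and fitting only the groups compared gave 29 higher calls. The cause was not tested. The replicate number as a block, although the numbers do not pair the arrays (correlations of same-numbered deviations from -0.183 to 0.263), left 32 higher and 2 lower calls in CMS50 minus vehicle, and 38 and 1 in CMS50 minus CMS25. None of the named genes that were called in CMS50 minus vehicle changed sign there under these alternatives. Most assembly differences were under 0.5 on the log2 scale, and 3 rats per dose limit what such sizes can show.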
